A study of Bos indicus with 55 samples.

Results

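The microRNA (miRNA) cargo of extracellular vesicles from nuclear transfer conceptuses of cattle was compared with that of vesicles from IVF conceptuses. The libraries were taken by their titles: 12 of nuclear transfer conceptuses (5 female and 7 male) and 10 of IVF conceptuses (7 female and 3 male), out of 28 vesicle libraries and 55 libraries in the series. The other 6 vesicle libraries came from in vivo conceptuses, sired by artificial insemination, and entered the fit, where they helped to set the spread between libraries and which entries passed the filter on low counts. Every library held the small RNA, 18 to 40 nucleotides long, of vesicles that a day 16 conceptus released into culture medium over 6 h, and each carries its own animal number. The organism label is Bos indicus, whereas the series' design text calls the conceptuses Bos taurus taurus. No label names the donor cells used for nuclear transfer or the number of lines they came from, so the p-values measure the spread between these libraries.

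Extracellular vesicles are membrane-bound particles that cells release and that carry small RNAs, among them miRNAs, which bind messenger RNAs by their seed and lower the output of those messages. In cattle the conceptus elongates around day 16, before it attaches, and its secretions reach the endometrium. Nuclear transfer makes an embryo by placing a donor cell's nucleus into an enucleated egg, while IVF joins egg and sperm in the dish, so both types start outside the cow and differ in the origin of the nucleus. Tissue-restricted miRNAs include miR-124 and miR-9 of nerve cells, miR-1 and miR-133 of muscle and the miR-302 cluster of pluripotent cells. They are used as markers of such cells, but which cells gave RNA to these vesicles was not tested.

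Library totals ranged from 69424 to 603579 counts for nuclear transfer and from 41396 to 200856 counts for IVF, and the means of the log10 totals differed by 0.03 (two-sided permutation test with 100000 resamples, p = 0.793, adjusted p = 0.793 over 3 library measures). The entries miR-2887 and miR-2904, whose catalogued sequences resemble ribosomal RNA, took 37.5% ± 16.7 of the counts in nuclear transfer libraries (SD, n = 12) and 45.3% ± 25.7 in IVF libraries (SD, n = 10). Their share ranged from 5.17% to 59.4% in nuclear transfer and from 8.80% to 76.3% in IVF, and the means did not differ beyond that spread (difference -7.81 percentage points, permutation p = 0.393, adjusted p = 0.793). When 30000 counts were drawn from each library, 244.75 ± 12.7 entries were detected in nuclear transfer libraries and 240.7 ± 21.2 in IVF libraries (SD, n = 12 and 10, permutation p = 0.586, adjusted p = 0.793).

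Of 1024 catalogued entries, 632 had a count in at least 1 of the 22 libraries and 240 passed the filter on low counts. Because several entries held the same counts in every library, these 240 stand for at most 234 separate measurements. Differences are on the log2 scale, nuclear transfer minus IVF, with the female and the male difference weighted equally, and were tested by edgeR's quasi-likelihood test with Benjamini-Hochberg adjustment over the 240 entries.

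miR-124a, miR-124b and miR-1298, all known from the nervous system, passed the adjusted threshold of 0.05 and were lower in nuclear transfer vesicles. These 3 make up 1.25% of the entries tested, while 0 entries (0%) were called higher. Of the 3, miR-124a and miR-124b are the same measurement, with counts in a fixed ratio. The adjusted p that the 3 share, 0.0466, was set by miR-124b, which has the largest p of the 3, so the calls lean on this repeat. The filter required a set level in 3 libraries, and each of the 3 entries reached it in 4: IVF female 4, IVF male 3, in vivo female 3 and in vivo male 2. They were thus tested only through libraries in which they were high, none of them of nuclear transfer, and with the 22 nuclear transfer and IVF libraries alone none of the 3 was tested. Limma voom called 0 of 240 entries, with 41 at an unadjusted p under 0.05 and -1.59 for miR-124a and -0.99 for miR-1298. DESeq2, run on more entries, called 0 of the 652 with an adjusted p, and 30 had an unadjusted p under 0.05. It gave no adjusted p for miR-124a and miR-1298, whose differences there were -13.27 and -5.59. miR-124b did have an adjusted p in DESeq2 and did not pass. In edgeR's test, an unadjusted p under 0.05 was reached by 7 entries higher (2.92%) and 17 lower (7.08%). In no entry (0%) did the 12 nuclear transfer libraries and the 10 IVF libraries separate without overlap. The median difference over all entries was 0.06, with 129 of the 240 positive (53.8%) and 111 negative (46.2%).

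miR-124 is an abundant miRNA of neurons that represses messages of other cell types. miR-124a had 0 counts in 11 of 12 nuclear transfer libraries and 8 counts in nuclear transfer female 3. In IVF libraries miR-124a had a median of 20.1 CPM (counts per 1000000, scaled by TMM) and was counted in 5 of 10, with 1041 CPM in IVF female 4 and 935 CPM in IVF male 3. The libraries of the types overlapped at 0, and the IVF group was split between 2 high libraries, 3 with 6 to 8 counts and 5 without a count. Pooled over libraries, miR-124a made up 0.413 of every 100000 counts in nuclear transfer (exact Poisson 95% interval 0.178 to 0.813) and 10.8 in IVF (9.14 to 12.7). Such intervals take each count as a separate read and cover counting error only. Every count of miR-124a was even, so its intervals may be too narrow. Pooled miR-124b, with 4 counts in nuclear transfer and 73 in IVF, gave 0.206 (0.0562 to 0.528) and 5.41 (4.24 to 6.81). Its fitted difference was -6.57 ± 1.58 (SE, adjusted p = 0.0466). Because all 7 male nuclear transfer libraries were at 0, the size of this fitted value depends on the prior count of the fit and is no bound. miR-124a held exactly 2 times the counts of miR-124b in every library, so the second is the same measurement, with a fitted difference of -5.88 ± 1.46 (SE).

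miR-1298, which is expressed in brain, had 4 counts in 3 of 12 nuclear transfer libraries, the highest at 9.11 CPM in nuclear transfer female 5. IVF libraries held 69 counts of it in 5 of 10, with a median of 5.67 CPM, 573 CPM in IVF male 3 and 369.4 CPM in IVF female 4. The 2 highest IVF libraries were those highest in miR-124a. Its difference was -5.24 ± 1.27 (SE, adjusted p = 0.0466). The pooled level was 0.206 per 100000 counts in nuclear transfer (0.0562 to 0.528) and 5.12 in IVF (3.98 to 6.48).

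**Figure D1:**
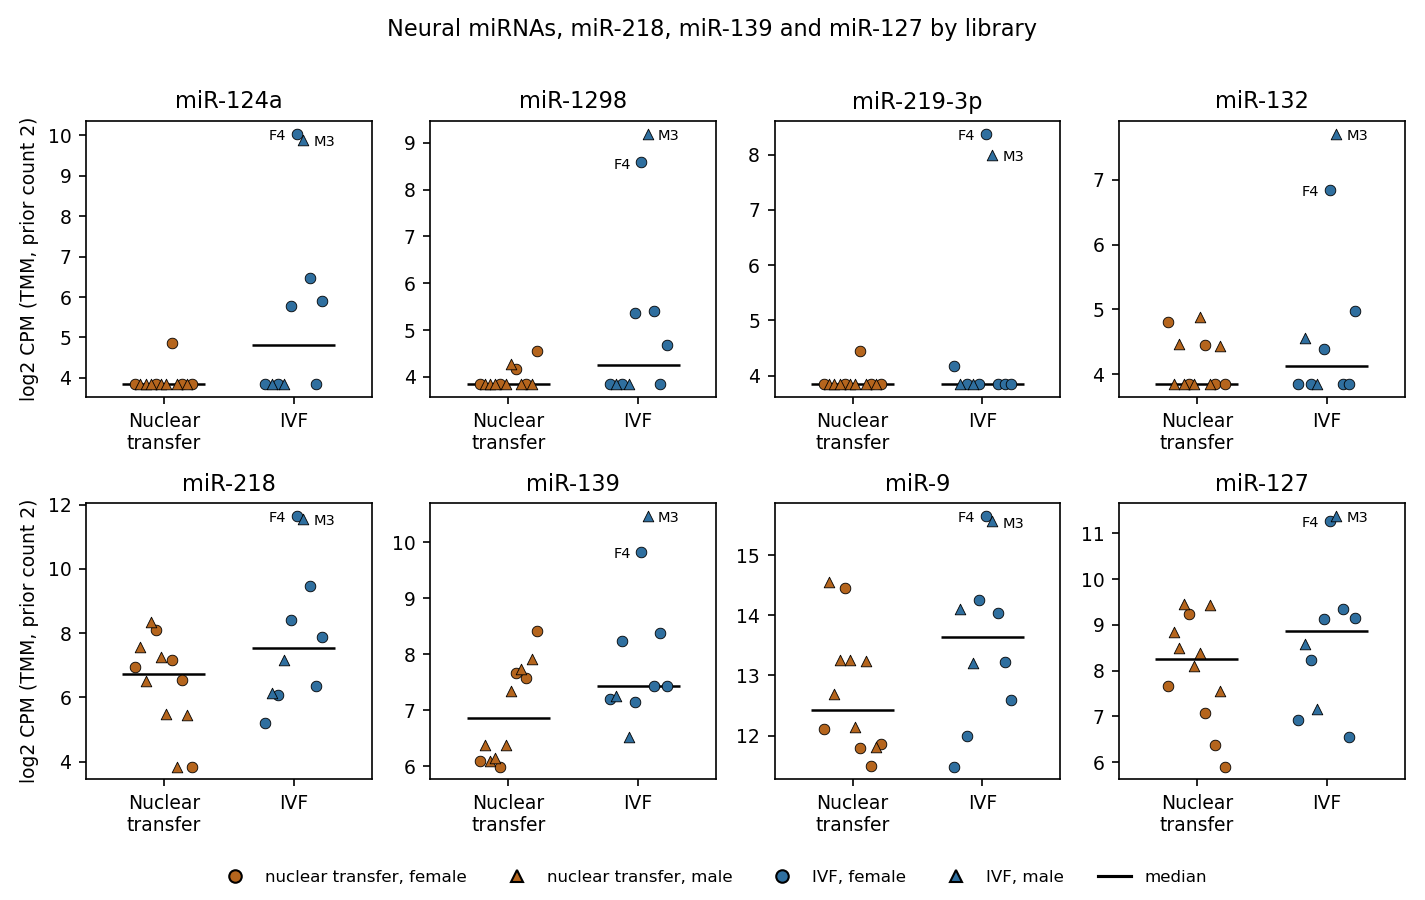
Levels of 8 miRNAs (log2 CPM with a prior count of 2, 1 panel each) in the 12 nuclear transfer libraries, left, and the 10 IVF libraries, right. Circles are female and triangles male conceptuses, bars are medians, and IVF female 4 (F4) and IVF male 3 (M3) are marked: they hold the 2 highest values in every panel, with 1041 and 935 CPM of miR-124a.

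The other tested neural entries had negative differences too, none of which passed the test. Of 14 neural entries 9 were tested, and all 9 differences were negative with a median of -2.48, beside 46.2% negative and a median of 0.06 over all entries, while miR-137, miR-153, miR-212, miR-219-5p and miR-219b-3p were too low to test. miR-219-3p, of the oligodendrocyte lineage, was at 0 in 11 of 12 nuclear transfer libraries and reached 319 CPM in IVF female 4 and 241 CPM in IVF male 3 (-4.90 ± 1.45 SE, adjusted p = 0.165). miR-132, induced by activity in neurons, had 10 counts in 5 of 12 nuclear transfer libraries and 24 counts in 5 of 10 IVF libraries, with up to 15.3 CPM in nuclear transfer and 196 CPM in IVF male 3 (-2.48 ± 1.03 SE, adjusted p = 0.428). miR-9, which acts in neural progenitors, was abundant in both types: it ranged from 2879 to 24091 CPM in nuclear transfer with a median of 5570, and from 2855 to 51476 CPM in IVF with a median of 13160. The groups overlapped over most of that range and the difference was -1.23 ± 0.55 (SE). miR-128, another brain-enriched miRNA, had medians of 2836 CPM in nuclear transfer and 2729 CPM in IVF (-0.62 ± 0.48 SE). miR-138 had 18 counts in each type, all in nuclear transfer male 4 and spread over 8 of 10 IVF libraries. Summed per 100000 counts, the neural list ranged from 595 to 3097 in nuclear transfer (median 903) and from 678 to 10482 in IVF (median 1396). Most of that sum was miR-9, with 677 per 100000 pooled counts in nuclear transfer, 1251 in IVF and 7728 in IVF male 3. The called entries added little to it, miR-124a having 0.413 in nuclear transfer and 10.8 in IVF. The members of the neural list were listed with earlier results of these data known, so their shared direction is a description of these libraries. The filter on low counts bears on that direction too. Like the called entries, miR-219-3p and miR-132 reached the filter's level in no nuclear transfer library. For miR-219-3p this level was reached in IVF female 4, IVF male 3, in vivo male 2 and in vivo female 3. For miR-132 it was reached in the same libraries apart from IVF female 4. Entries let in by high libraries of other types lean negative, so the 46.2% over all entries is no fair measure for this list.

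IVF male 3 and IVF female 4 carried most of this difference. Without both of them, an alternative added after the data were seen, no entry passed and the differences became -1.07 for miR-124a and -0.22 for miR-1298 (adjusted p = 0.961), while miR-219-3p turned to 0.50 and 2 of the 9 neural differences were positive, with a median of -0.42. Leaving out IVF male 3 alone, the shallowest library of the comparison, gave -2.21 for miR-124a, -2.04 for miR-124b and -1.28 for miR-1298 (adjusted p = 0.997). The counts behind the 2 libraries were similar, 62 of miR-124a in each, or 51.0 per 100000 counts in IVF female 4 and 149.8 in IVF male 3. Leaving out any 1 of 15 libraries ended all 3 calls: nuclear transfer female 1 to 5, nuclear transfer male 3, 5, 6 and 7, IVF female 3, 4, 5 and 7, IVF male 3, and in vivo male 3. In vivo libraries overlapped both types, with 96 counts of miR-124a in 4 of 6 libraries and up to 778 CPM. The shallowest vesicle libraries, in vivo male 2 (39263 counts), IVF male 3 (41396) and in vivo female 3 (49179), were all high in miR-124a. IVF female 4, also high, held 121539 counts, and the part of depth was not tested. The source of these reads was not tested.

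The same pair of IVF libraries was highest for several other miRNAs with a negative difference. miR-218, which is high in motor neurons, ranged from 0 to 309 CPM in nuclear transfer with a median of 93.4, and from 22.8 to 3207 CPM in IVF with a median of 175. IVF female 4 (3207 CPM) and IVF male 3 (2986 CPM) were the highest libraries, and the difference of -2.90 ± 0.96 (SE, adjusted p = 0.218) was -0.44 without them. miR-139 had medians of 109 CPM in nuclear transfer and 159 CPM in IVF, with maxima of 328 CPM in nuclear transfer and 1403 CPM in IVF male 3. Its difference of -1.52 ± 0.52 (SE, adjusted p = 0.231) was -0.11 without the pair. miR-127, a maternally expressed miRNA of the imprinted DLK1-DIO3 region that is antisense to RTL1, ranged from 45.6 to 689 CPM in nuclear transfer (median 292) and from 79.6 to 2655 CPM in IVF (median 457). Its difference of -1.52 ± 0.63 (SE, adjusted p = 0.428) was -0.09 without the pair. miR-433 of the same region had medians of 7.70 CPM in nuclear transfer and 8.03 CPM in IVF (-1.90 ± 0.92 SE), and -0.37 without them. It rested on 12 counts in nuclear transfer and 21 in IVF. The level of the filter was reached only in IVF male 3, in vivo male 2 and in vivo female 3. None of these 4 passed the adjusted test.

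**Figure D2:**
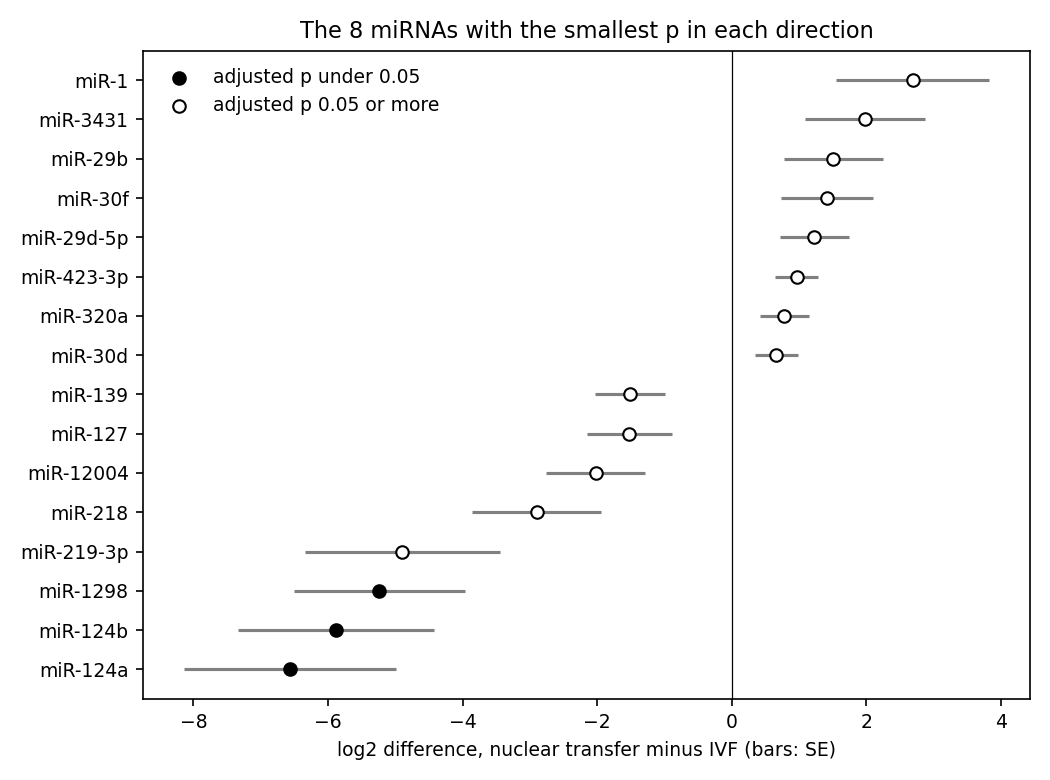
Difference in log2 level, nuclear transfer minus IVF, for the 8 entries with the smallest p in each direction, with the standard error as bars. The filled points, miR-124a, miR-124b and miR-1298, are the 3 with an adjusted p under 0.05, and the 8 positive differences lie between 0.66 and 2.69.

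The pluripotency clusters were lower in nuclear transfer vesicles on average without passing the test. miR-302 and miR-371 are made in embryonic stem cells and the early embryo, where they speed the cell cycle. All 5 tested members had negative differences, with a median of -1.79, beside 46.2% negative over all entries. An unadjusted p under 0.05 was reached by 3 of the 5, beside 7.08% of all entries lower at that level. The differences were larger in females: miR-371 gave -3.88 in females and 0.006 in males, and the medians by sex are given below. miR-302b ranged from 46.1 to 3169 CPM in nuclear transfer with a median of 458, and from 15.1 to 5177 CPM in IVF with a median of 1556. The ranges overlapped nearly in full, although 10 of 12 nuclear transfer libraries lay below the IVF median, and the difference was -1.78 ± 0.75 (SE, adjusted p = 0.428). miR-302a gave -1.97 ± 0.85, miR-302d -1.79 ± 0.88, miR-302c -1.54 ± 0.96 and miR-371 -1.93 ± 0.88 (SE).

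miR-302b moved with the share of counts on miR-2887 and miR-2904. In the 4 IVF libraries with a share of 23.97% or less it lay between 15.1 and 261 CPM, and in the 6 with 48.1% or more between 1285 and 5177 CPM. Nuclear transfer libraries ran the same way, with 52.5 CPM at a share of 5.17% in nuclear transfer female 3 and 3169 CPM at 59.4% in nuclear transfer male 1, apart from nuclear transfer male 2, which had 46.1 CPM at 39.1%, and nuclear transfer female 1, which had 162 CPM at 44.5%. With that share as a covariate, the difference of miR-302b was -0.27, that of miR-302a was -0.24, and the median of the list was -0.24. The share averaged 24.6% in female nuclear transfer libraries, 46.6% in male nuclear transfer libraries, 45.0% in female IVF libraries and 45.9% in male IVF libraries.

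**Figure D3:**
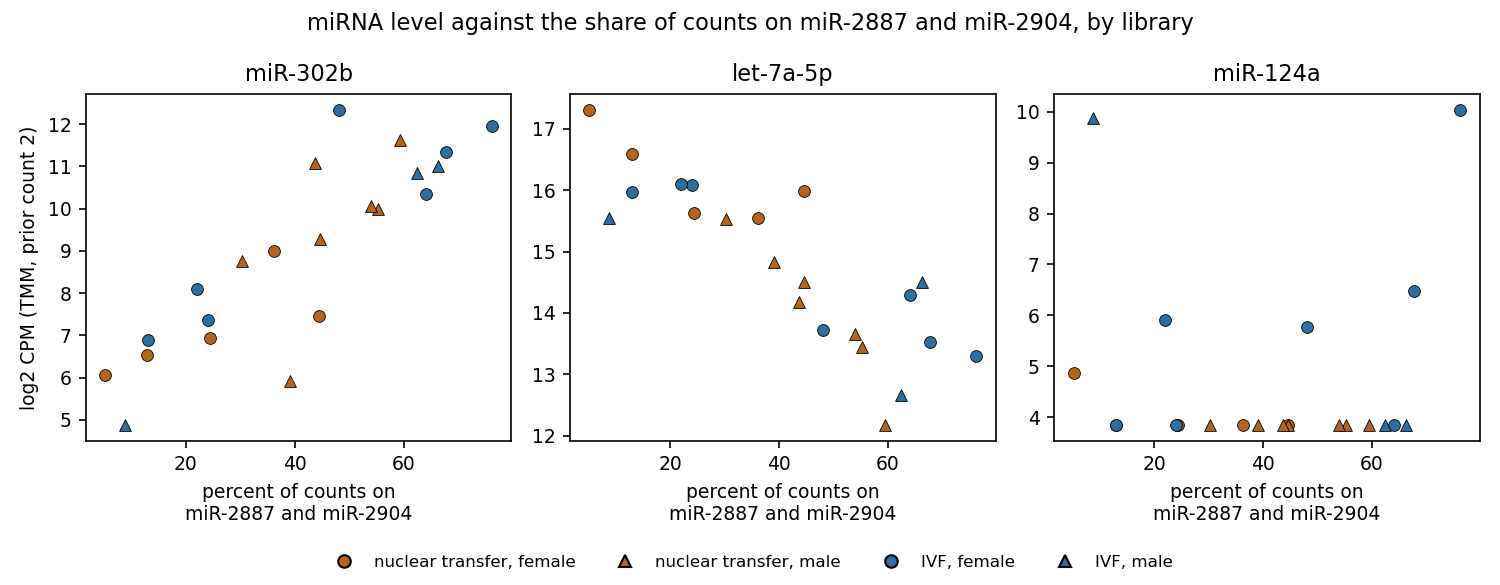
Levels of miR-302b, let-7a-5p and miR-124a (log2 CPM) against the percent of a library's counts on miR-2887 and miR-2904 in the 22 libraries. miR-302b is higher and let-7a-5p lower in libraries with a larger share, in nuclear transfer and IVF alike, whereas the 2 libraries highest in miR-124a lie at 76.3% and 8.80%.

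Further entries with a negative difference, none past the test, were miR-2892, miR-12004 and miR-19b. miR-2892 had a median of 825 CPM in nuclear transfer and 3158 CPM in IVF (-1.98 ± 0.83 SE), and 0.02 with the share as a covariate. miR-12004 had a median of 26.1 CPM in nuclear transfer and 121.9 CPM in IVF (-2.02 ± 0.74 SE, adjusted p = 0.322), and -1.04 with the share as a covariate. miR-19b, of the growth-promoting miR-17-92 cluster, had a median of 48.8 CPM in nuclear transfer and 61.8 CPM in IVF (-1.59 ± 0.78 SE), and -0.47 without IVF male 1, which held 668 CPM. The 8 tested members of the miR-17, miR-18, miR-19 and miR-25/92 families were split evenly, 4 positive and 4 negative, with 2 positive under RLE scaling and 6 with the share as a covariate. The 5 tested entries that overlap other small RNAs all had negative differences, with a median of -1.16, but with the share as a covariate 3 of the 5 were positive.

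No miRNA was called higher in nuclear transfer vesicles. Among the positive differences miR-423-3p had the smallest p: it ranged from 909 to 4318 CPM in nuclear transfer with a median of 3340, and from 633 to 3124 CPM in IVF with a median of 1641. Of the 12 nuclear transfer libraries 9 lay above the IVF median, the ranges overlapped, and the difference was 0.96 ± 0.31 (SE, adjusted p = 0.218), with 1.10 in males and 0.83 in females. Under the alternatives and omissions run, it stayed between 0.71 and 1.10. miR-29d-5p had medians of 50.4 CPM in nuclear transfer and 24.4 CPM in IVF, with 10 of 12 nuclear transfer libraries above the IVF median (1.23 ± 0.52 SE, adjusted p = 0.428). miR-29b, whose family represses collagen messages, had medians of 103.5 CPM in nuclear transfer and 56.2 CPM in IVF. Its highest value, 1063 CPM, was in nuclear transfer female 2, and the difference of 1.51 ± 0.74 (SE) was 0.80 without that library.

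Nuclear transfer female 3, the deepest library, held the highest values of miR-320a, miR-30f, miR-30d and miR-3431. miR-320a, which is made without the Drosha enzyme, had medians of 2408 CPM in nuclear transfer and 1221 CPM in IVF, and reached 8340 CPM in nuclear transfer female 3 (0.78 ± 0.37 SE, and 0.46 without it). miR-30f had medians of 584.8 CPM in nuclear transfer and 174 CPM in IVF (1.42 ± 0.68 SE, and 0.97 without that library). miR-30d had medians of 6134 CPM in nuclear transfer and 6003 CPM in IVF (0.66 ± 0.32 SE, and 0.43 without it). All 6 tested miR-30 members had positive differences, with a median of 0.54, and all 6 were positive under RLE scaling and with the share of miR-2887 and miR-2904 as a covariate too. miR-3431 had medians of 20.7 CPM in nuclear transfer and 12.2 CPM in IVF (1.98 ± 0.89 SE), with 3.22 without IVF male 2 and 0.85 with limma voom. Each of these had an adjusted p of 0.428.

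Among the 22 libraries, miR-1, miR-133a and miR-206 were highest in male nuclear transfer libraries, and miR-499 in nuclear transfer female 4. No muscle entry passed the adjusted test. miR-1, which promotes differentiation of heart and skeletal muscle, ranged from 11.3 to 15428 CPM in nuclear transfer with a median of 439.5, and from 0 to 1351 CPM in IVF with a median of 201. The groups overlapped, and nuclear transfer male 6 (15428 CPM) and nuclear transfer male 4 (9818 CPM) stood above every IVF library by a wide margin. The difference was 2.69 ± 1.14 (SE, adjusted p = 0.428), made of 4.70 in males and 0.67 in females, and was 2.21 without nuclear transfer male 6 and 2.28 without nuclear transfer male 4. miR-133a, made from the same transcripts as miR-1, reached 1387 CPM in nuclear transfer male 4 and 498.6 CPM in nuclear transfer male 6, against at most 213 CPM in IVF (2.03 ± 1.23 SE). miR-206 of skeletal muscle reached 969 CPM in nuclear transfer male 6 and 968 CPM in nuclear transfer male 7, against 899.6 CPM in IVF female 1 (2.80 ± 1.40 SE). miR-122, the main liver miRNA, was highest in nuclear transfer male 4 at 25593 CPM (0.21 ± 0.71 SE). miR-499 gave 0.12, made of -0.65 in males and 0.89 in females. It reached 2277 CPM in nuclear transfer female 4 and at most 709 CPM, in nuclear transfer male 5, among male nuclear transfer libraries. The muscle and liver list had 5 positive differences of 5 tested with a median of 2.03, though 1 of the 5 was negative under RLE scaling and with the share as a covariate, and its sum ranged from 95.6 to 3578 per 100000 counts in nuclear transfer and from 59.2 to 1594 in IVF. miR-208a had no count in the 22 libraries. The part that other tissue had in these values was not tested.

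Female and male conceptuses were also compared separately. Within females no entry passed the adjusted threshold (0%), the smallest adjusted p being 0.236, and 36 entries (15%) had an unadjusted p under 0.05, 10 higher (4.17%) and 26 lower (10.8%). Within males no entry passed either (0%), the smallest adjusted p being 0.191, and 16 entries (6.67%) had an unadjusted p under 0.05, 9 higher (3.75%) and 7 lower (2.92%). Other tools called some female differences. DESeq2 called 10 of 220 entries with an adjusted p, all lower, among them miR-302a, miR-302b, miR-302d and miR-371. Of 240 entries, limma voom called miR-10a higher and miR-365-3p and miR-7857-3p lower. The names were taken after their values were seen. In males DESeq2 called 0 of 652 entries and limma voom 0 of 240, with 19 and 12 entries at an unadjusted p under 0.05. Over the 240 entries the female and the male difference had the same sign in 115 (47.9%), with a Pearson correlation of 0.26 and a Spearman correlation of 0.01 across entries, which are not independent. The difference between the sexes, male minus female, was positive for 52.9% of the entries and negative for 47.1%. It was itself tested, and no entry (0%) passed, with a smallest adjusted p of 0.423 and 23 entries (9.58%) at an unadjusted p under 0.05. DESeq2 called 0 of 652 entries and limma voom 0 of 240, with 38 and 19 at an unadjusted p under 0.05.

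Imprinted DLK1-DIO3 miRNAs, which come from the maternal chromosome, were 3 of the 5 entries with the smallest p in that test. The region held 16 of the 240 tested entries, and none of them passed. miR-154c ranged from 51.0 to 1068 CPM in male nuclear transfer libraries and stood at 0, 0 and 111 CPM in male IVF libraries. In females it ranged from 9.11 to 40.5 CPM in nuclear transfer libraries and from 0 to 194 CPM in IVF libraries. The male difference exceeded the female difference by 5.28 ± 1.65 (SE, adjusted p = 0.423). IVF male 1 was the only male IVF library with a count of it, and without that library the fitted value was 10.71, which depends on the prior count and is no bound. miR-411a gave 1.68 in males and -1.77 in females, and miR-381 gave 1.74 in males and -1.05 in females, with the same adjusted p. Of the 16 tested members of the region, out of 59 catalogued, 12 were positive and 4 negative in males (median 0.91), beside 55.4% positive and 44.6% negative over all entries, and 1 was positive and 15 negative in females (median -1.05), beside 50% of each sign over all entries. Over both sexes the list had 10 positive differences with a median of 0.12. With RLE scaling, which moved the female median of all entries to -0.19, against 0.01 with TMM, the female count stayed at 1 positive, and with the share of miR-2887 and miR-2904 as a covariate 3 were positive.

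**Figure D4:**
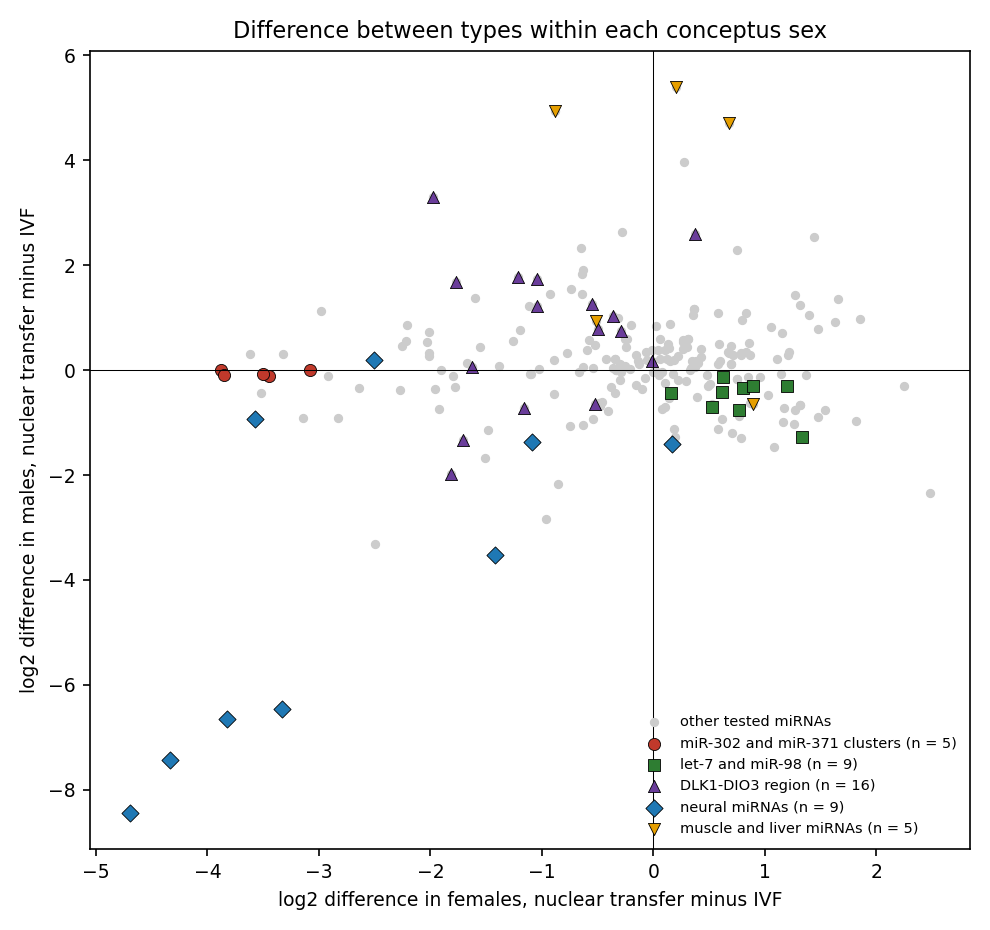
Difference in log2 level, nuclear transfer minus IVF, in females (horizontal) and in males (vertical) for the 240 tested entries, with 5 lists in colour. The 5 entries of the miR-302 and miR-371 clusters lie near 0 in males with a female median of -3.50, and the 9 entries of let-7 and miR-98 lie right of 0 and below 0.

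let-7, whose members mark differentiated cells and target LIN28 messages, had differences of opposite sign in the sexes, none past the test. All 9 tested entries of let-7 and miR-98 were negative in males (median -0.42) and all 9 were positive in females (median 0.77), with 7 positive and a median of 0.09 over both, but 4 of the 9 were positive over both under RLE scaling and 4 with the share as a covariate. In those settings 1 entry turned in a single sex: 8 of 9 were positive in females under RLE scaling, and 1 of 9 was positive in males with the covariate. The miR-302 and miR-371 clusters had a median of -0.08 in males and -3.50 in females, and with the share as a covariate 0.65 in males and -1.14 in females. The miR-10, miR-99/100 and miR-125 families had 0 of 7 positive in males (median -0.94) and 6 of 7 in females (median 0.62), and 1 of 7 in males and 6 of 7 in females with the share as a covariate. miR-222, which lowers the cell cycle inhibitor CDKN1B, gave -0.71 in males and 1.17 in females, a difference between the sexes of -1.88 ± 0.66 (SE, adjusted p = 0.423) that was -1.13 without IVF male 3. miR-7857-3p gave 1.13 in males and -2.98 in females. Only 3 male IVF libraries entered these values, and the female nuclear transfer libraries had the lowest mean share of miR-2887 and miR-2904, whose part in the female differences was not tested beyond the covariate.

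No abundant miRNA passed the test. miR-148a, which shared every count with miR-148d and is abundant in milk, averaged 99191 ± 37224 CPM in nuclear transfer and 73594 ± 21556 CPM in IVF (SD, n = 12 and 10), a difference of 0.45 with a 95% interval of -0.11 to 1.01. miR-26a, of which miR-26c held a fixed fraction, had medians of 38673 CPM in nuclear transfer and 27769 CPM in IVF (0.41, interval -0.23 to 1.05). let-7a-5p ranged from 4596 to 162471 CPM in nuclear transfer and from 6493 to 70014 CPM in IVF (0.45, interval -0.51 to 1.40). miR-21-5p, induced in growing and inflamed tissue, had medians of 20652 CPM in nuclear transfer and 23509 CPM in IVF (-0.10, interval -0.60 to 0.40). let-7f gave 0.23 (interval -0.43 to 0.89). miR-7, common in endocrine and neural cells, had medians of 16304 CPM in nuclear transfer and 34920 CPM in IVF (-0.65, interval -1.79 to 0.49), and 0.25 with the share as a covariate. The most abundant entries of all, miR-2887 and miR-2904, gave -0.59 ± 0.48 and -1.16 ± 0.58 (SE).

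**Figure D5:**
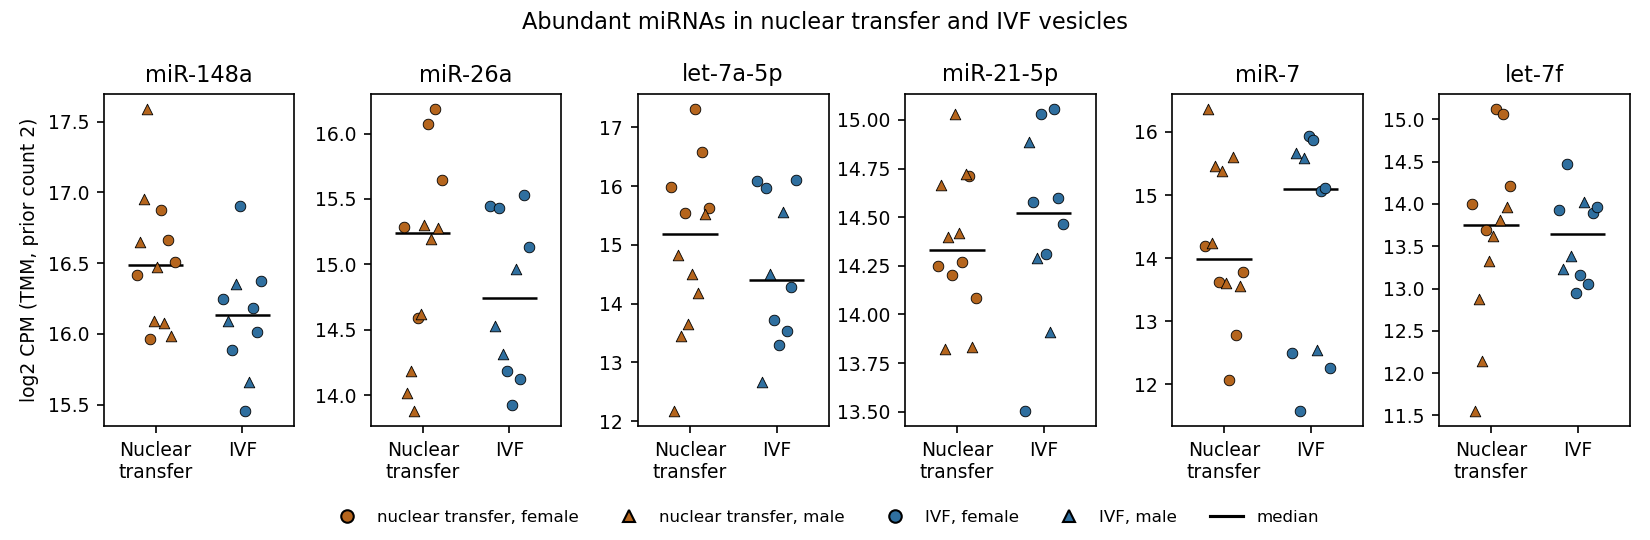
Levels of 6 abundant miRNAs (log2 CPM, 1 panel each) in nuclear transfer libraries, left, and IVF libraries, right, with medians as bars. The groups overlap in every panel, and miR-148a has medians of 91981 CPM in nuclear transfer and 72048 CPM in IVF.

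Families of epithelium, blood and vessel wall showed no entry past the test. The miR-200 family, which keeps the epithelial state by repressing ZEB messages, had 5 positive differences of 5 tested with a median of 0.53, and 4 of 5 under RLE scaling and with the share as a covariate. Blood cell miRNAs had 5 positive of 7 tested with a median of 0.17, but 4 of 7 under RLE scaling and 3 of 7 without IVF male 3 and IVF female 4. miR-451 of red cells gave -0.51 ± 0.86 and miR-223 of granulocytes 0.41 ± 1.16 (SE), and the blood list summed to between 54.8 and 857 per 100000 counts in nuclear transfer and between 99.04 and 855 in IVF. Fibroblast and vessel miRNAs had 6 positive of 8 tested with a median of 0.14, and 4 of 8 under RLE scaling. miR-2284 and miR-2285, large families of ruminants, had 4 positive of 4 tested, out of 146 catalogued, with a median of 1.11, and miR-449a of ciliated cells and miR-34c were both positive (median 0.81). The miR-15/16 family had 2 positive of 5 and a median of 0.00.

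Spread within a type was similar in both. The median SD of log2 CPM was 1.10 over nuclear transfer libraries and 1.16 over IVF libraries, and it was larger in nuclear transfer for 131 of 240 entries (54.6%). The balance of the 5′ and 3′ arms of a precursor, a ratio within a library that does not depend on scaling, did not differ beyond its spread in any of the 5 pairs with enough counts. miR-142, of blood cells, had a mean log2 ratio of 5p to 3p of 1.06 in nuclear transfer and 0.61 in IVF (permutation p = 0.111, adjusted p = 0.554 over the 5 pairs). miR-22 had -2.99 in nuclear transfer and -3.41 in IVF (permutation p = 0.263, adjusted p = 0.658), and miR-423 had -0.41 in nuclear transfer and -0.01 in IVF (permutation p = 0.439, adjusted p = 0.731). miR-129 differed by 0.24 and miR-199a by -0.05 (adjusted permutation p = 0.790 and 0.903).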

How the data were processed

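Small RNA of vesicles was sequenced, and the authors deposited whole-number read counts per miRNA entry for 28 vesicle libraries, not normalized; per the submitters' processing notes, cutadapt, Bowtie, STAR, featureCounts, DESeq2 and the ARS-UCD1.2 build are named, without roles or versions. Reads shared by near-identical entries could be counted for each, since several entries hold the same counts. All columns were mapped to samples, groups came from the titles, and no batch or date is labelled. Endometrium counts were not used here.

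Counts were filtered with filterByExpr (minimum count 10, minimum total 15), scaled by TMM and fitted with 6 group means (type by sex) over all 28 libraries in edgeR 4.0.16 (glmQLFit and glmQLFTest, R 4.3.3). The contrast averaged the female and the male difference. Adjusted p-values are Benjamini-Hochberg values over the 240 entries tested, with a threshold of 0.05. Intervals of 95% on differences are the fitted value ± 1.96 SE and can be narrower than edgeR's test implies. Levels are CPM with TMM factors, and log2 levels use a prior count of 2. Library measures and arm ratios, log2 of 5p over 3p counts with a pseudocount of 0.5, were compared by permutation. Pooled counts carry exact Poisson intervals, which take each count as a separate read and cover counting error only. The fit was tested on simulated data.

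Alternatives were DESeq2 1.42.0, limma 3.58.1 voom with quality weights, RLE scaling, other filters, omission of miR-2887 and miR-2904 or their share as a covariate, other sets of libraries, a replicate block and the omission of each library. Removal of IVF male 3 with IVF female 4, of entries with the same counts, and a robust spread estimate were added after the data were seen. Named miRNAs were those past the threshold, the 8 with the smallest p in each direction, the 10 most abundant, up to 2 members of each list at an unadjusted p under 0.05, and the 5 with the smallest p for the sex dependence; other list members named serve to describe their list. The libraries and lists were chosen with earlier results of these data known.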

Additional observations from a re-analysis of the deposited data

Results flagged for a closer look

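Within the groups of 4 to 10 libraries, each type and sex taken apart, a library stood far from the others of its group in 16 tests (chance alone gives about 1 in 20, or 6.6 of the tests made). Values are log2 CPM unless another unit is given. Among female IVF libraries, IVF female 4 was the far highest for miR-1298 (8.58), miR-124a (10.04), miR-124b (9.06), miR-219-3p (8.38) and miR-433 (7.22). The group of 3 male IVF libraries, which holds IVF male 3, was too small for this check. Nuclear transfer female 3 was the far highest of its group for miR-124a (4.87), miR-124b (4.45), miR-219-3p (4.45) and miR-320a (13.03), and for the log10 of total counts (5.78). Nuclear transfer male 5 was the far highest for miR-1298, at 4.28, which is a count of 1. Where all other libraries of a group are at 0, any count is flagged. This was so for miR-1298 in nuclear transfer male 5 and for miR-124a, miR-124b and miR-219-3p in nuclear transfer female 3 (8, 4 and 4 counts). Such flags, with miR-124a and miR-124b as the same measurement, are part of the 16, so the 6.6 is no strict measure for it. Single libraries lay far below their group for miR-30f in nuclear transfer male 1 (4.60), miR-302a in nuclear transfer male 2 (3.84, a count of 0) and miR-2892 in nuclear transfer male 7 (6.86). The log2 ratio of 5p to 3p stood apart for miR-423 in nuclear transfer male 7, the highest of its group at -0.062, and for miR-22 in IVF female 2, the lowest of its group at -4.15.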

How the results depend on the processing

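The count of 3 calls between nuclear transfer and IVF was also 3 under RLE scaling, a filter of 10 CPM in 3 libraries, a robust spread estimate and 1 entry per set with the same counts. That last setting kept both miR-124a and miR-124b, whose counts stand in a fixed ratio and are not equal. It therefore does not show the calls with miR-124 entered a single time, and no alternative did so. The adjusted p of 0.0466 shared by the 3 was set by miR-124b (unadjusted p = 0.00058, edgeR's test), so the calls lean on that repeated entry. The count was 5 without a filter on low counts (miR-218 and miR-219-3p in addition). It was 0 with DESeq2, limma voom, omission of miR-2887 and miR-2904, their share as a covariate, and omission of IVF male 3 with IVF female 4. DESeq2 gave no adjusted p for miR-124a (-13.27) and miR-1298 (-5.59), so its 0 is no test of them. miR-124b, the same measurement as miR-124a, did have an adjusted p in DESeq2 and did not pass. The count was also 0 with only the 22 libraries, without libraries under 50000 counts and with no conceptus sex in the model, where the filter on low counts left out all 3 called entries. Leaving out 1 library at a time gave 0 to 4 calls. In females DESeq2 called 10 and limma voom 3; in males the fit without a filter called 4, that without IVF male 3 and IVF female 4 called 0, and leaving out 1 library gave 0 to 4, with 4 without IVF female 4. The sex dependence gave 0 calls throughout. The replicate numbers did not pair the libraries (correlations of -0.44 to 0.52 over 8 pairs, 2 of them over 0.1), and a replicate block gave 3 calls; it lowered the difference of miR-1 to 1.12.

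Over 36 named results and 473 alternative values, 452 kept direction and side of the threshold, 13 were no longer past it, 2 newly passed and 6 reversed; with 1 library left out the numbers were 957, 45, 0 and 1 of 1003. With the share of miR-2887 and miR-2904 as a covariate, miR-2887 gave 0.24, miR-2904 0.15, miR-7 0.25, miR-2892 0.015 and let-7f -0.016. Without IVF male 3 and IVF female 4, miR-219-3p gave 0.50; with 1 library left out it ranged from -5.75 to -1.53, and miR-21-5p from -0.27 to 0.0067. The difference in log10 total was -0.027 without libraries under 50000 counts and -0.033 to 0.052 with 1 library left out. The arm ratio of miR-199a differed by 0.045 with a pseudocount of 5 and by -0.19 to 0.15 with 1 library left out, and that of miR-129 by -0.0050 to 0.51. The cause of these changes was not tested. Depth limits entries such as miR-124a and miR-1298, for which 3 counts are 0.155 per 100000 pooled counts in nuclear transfer and 0.222 in IVF.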
